A study of Mus musculus with 12 samples.

Results

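Inhibitory interneurons were followed through 10 genes that mark them: Gad1, Gad2, Pvalb, Sst, Npy, Vip, Cck, Calb2, Reln and Lhx6. The members were chosen by name, as every probe that the platform annotation gives to one of these symbols. This rule found 21 probes of the 45281 on the array, and 13 of them, with at least 1 for each of the 10 genes, were detected well enough to be tested. The RNA came from the hippocampus of female C57BL/6J mice aged 12 weeks, and each sample was hybridized to its own 1-colour bead array from Illumina. The 6 EtOH arrays held offspring whose dams could drink ethanol (10% v/v) voluntarily, starting 0.5 days after mating and ending at 8.5 days. The 6 Control arrays held offspring of the comparison group. The treatment text is the same on all samples, Control included, so the groups were read from the sample titles, and how Control dams were kept is not given in the sources used here. All groups share strain, sex, tissue and age.

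Interneurons are the neurons of the hippocampus that release GABA, the main inhibitory transmitter of the adult brain, and they set when and how strongly the pyramidal and granule cells fire. They fall into classes that are told apart by a calcium-binding protein or a neuropeptide: basket cells with parvalbumin target the cell body, cells with somatostatin target dendrites, and many cells with vasoactive intestinal peptide target other interneurons. Most of them are born in the ganglionic eminences of the embryonic forebrain and migrate into the hippocampus. Several of the marker genes are not restricted to interneurons, since Cck is also transcribed in pyramidal cells and Calb2 and Reln in other neurons as well. In RNA of a tissue, fewer cells of a class and less RNA per cell cannot be told apart.

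The promoters of the members whose values are set against each other later are shown so that the sequence stands beside the data. The windows are from RefSeq on GRCm38.p6 and hold the 250 bases before a transcript start of the gene, written 5′ to 3′ on the gene's strand. The Sst window lies before a start inside the annotated span of the gene, and the other windows printed lie directly outside that span. RefSeq windows were matched for 9 of the 10 members, 12 windows in all, and Calb2 was not matched. Pvalb and Reln are shown as the pair whose values moved most alike, Npy as the member with the smallest p-value, and Sst as the member with a whole cAMP response element. Capitals in Npy and Reln mark GGGCGG, the GC box, and capitals in Sst mark TGACGTCA, the cAMP response element. The Pvalb window shown, the first of its 2 windows, held none of the motifs searched.
Pvalb, chr15:78206401-78206650, minus strand: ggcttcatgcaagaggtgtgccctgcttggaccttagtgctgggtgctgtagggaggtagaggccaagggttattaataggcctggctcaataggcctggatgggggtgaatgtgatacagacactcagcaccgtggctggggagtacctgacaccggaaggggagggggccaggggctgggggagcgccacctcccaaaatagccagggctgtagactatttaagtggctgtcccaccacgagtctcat
Reln, chr5:22344706-22344955, minus strand: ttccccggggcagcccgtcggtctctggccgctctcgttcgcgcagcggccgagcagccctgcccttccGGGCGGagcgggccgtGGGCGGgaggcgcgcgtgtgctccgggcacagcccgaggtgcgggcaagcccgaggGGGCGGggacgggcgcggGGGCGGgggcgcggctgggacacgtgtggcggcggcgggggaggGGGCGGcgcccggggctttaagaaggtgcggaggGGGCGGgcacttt
Npy, chr6:49822460-49822709, plus strand: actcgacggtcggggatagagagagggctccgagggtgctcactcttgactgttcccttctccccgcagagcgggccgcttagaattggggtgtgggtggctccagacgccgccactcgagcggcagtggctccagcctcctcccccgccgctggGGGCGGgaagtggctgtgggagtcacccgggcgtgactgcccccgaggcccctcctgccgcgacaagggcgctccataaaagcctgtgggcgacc
Sst, chr16:23890845-23891094, minus strand: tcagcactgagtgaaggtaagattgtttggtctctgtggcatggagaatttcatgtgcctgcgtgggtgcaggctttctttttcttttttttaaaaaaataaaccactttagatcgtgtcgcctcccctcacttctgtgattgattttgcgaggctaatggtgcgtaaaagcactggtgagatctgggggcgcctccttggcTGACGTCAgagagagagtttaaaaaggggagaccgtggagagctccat
The whole cAMP response element, which reads the same on both strands, was present in 1.55% of the 32851 RefSeq windows of this length and in 1 of the 12 member windows, that of Sst, where it began 48 bases before that start. Its 5-base part TGACG, searched on both strands and contained in the whole element, was present in 17.8% of all windows and in 4 of the 12 member windows. GGGCGG, searched on both strands, was present in 32.7% of all windows and in 5 of the 12 member windows, and 6 copies lay in the Reln window, 80.0% of whose bases are G or C. TATAAA, searched on the gene's strand, was present in 7.59% of all windows and among the members in 1 window, that of Vip. A match of letters describes the window and does not show that a factor binds there.

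Across the series, median raw intensity per array lay between 126 and 146.9, and 19748 to 20858 probes per array were detected. The arrays were spread over 2 chips: 4 EtOH arrays shared chip 1 with 2 Control arrays, and the remaining 2 EtOH arrays shared chip 2 with 4 Control arrays. Values are given as normalized intensity on the log2 scale, and differences are EtOH minus Control, adjusted for the chip, with a 95% confidence interval. The labels do not tell dams or litters apart, so the p-values measure the spread between arrays only. Choroid plexus transcripts were high on 4 arrays (EtOH 2, EtOH 4, Control 2 and Control 4), where the mean of 5 such genes was at least 10.36, against at most 7.52 on the other 8. The kept principal neuron genes of the hippocampus had list means from 10.07 to 10.30 on the EtOH arrays and from 10.12 to 10.37 on the Control arrays.

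No member passed the test between the groups. The limma p-value adjusted by the Benjamini-Hochberg method over 20172 kept probes was 1.00 for each of the 13 member probes, and 0 of all kept probes (0%) passed the threshold of 0.05. Without adjustment, 1 of the 10 main probes (the brightest kept probe of each gene) had p under 0.05, Npy, against 3.48% of all kept probes (702 of 20172). Npy was lower in EtOH, as were 1.73% of all kept probes at that p, and 1.75% were higher. The main probes of 8 members had a positive difference and 2 a negative one, Npy and Calb2, with a median of 0.08, while 51.2% of all kept probes had a positive difference and their median was 0.0025. With the chip left out of the fit, 5 members had a positive difference and the median was 0.04. Without Control 2, 6 members had one and the median was 0.03.

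Gad1 and Gad2 encode the 2 glutamate decarboxylases that make GABA from glutamate. The main probe of Gad1 ranged from 12.54 to 12.75 with a median of 12.65 on the EtOH arrays, against 12.36 to 12.89 with a median of 12.68 on the Control arrays. The EtOH values lay inside the Control range. Gad1 averaged 12.64 ± 0.07 in EtOH and 12.65 ± 0.18 in Control (SD, n = 6 each), a difference of 0.05 (95% interval -0.11 to 0.21), which was 0.18 within chip 1 and -0.08 within chip 2. The difference is adjusted for the chip while the means are not, and its sign turned where the chip was left out (-0.0096) and without Control 1 (-0.02). The second Gad1 probe differed by 0.04 and followed the first over the arrays (r = 0.853). A further kept probe, at 5.42 to 6.46, differed by 0.01 and ran against the first (r = -0.447), and the remaining probe was detected on 0 of 12 arrays. These r values describe probes of 1 gene on shared arrays.

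Gad2, the decarboxylase found at synaptic terminals, ranged from 11.05 to 11.32 with a median of 11.22 on the EtOH arrays, against 10.93 to 11.16 with a median of 11.12 on the Control arrays. The groups overlapped, with 4 EtOH arrays above every Control array. Gad2 averaged 11.21 ± 0.10 in EtOH and 11.09 ± 0.08 in Control (SD, n = 6 each), a difference of 0.11 (-0.04 to 0.25). It was 0.22 within chip 1, -0.01 within chip 2, 0.04 without Control 2 and 0.16 without EtOH 6. The kept Gad2 probe carries no transcript accession, and the other, which is assigned to the RefSeq transcript, was detected on 0 of 12 arrays. The value therefore rests on a probe whose transcript is not stated.

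Pvalb encodes parvalbumin, the calcium buffer of fast-spiking basket cells. Its 1 probe ranged from 11.81 to 12.16 with a median of 12.02 on the EtOH arrays, against 11.70 to 12.02 with a median of 11.95 on the Control arrays. Of the EtOH arrays, 3 lay above every Control array, and the lowest value of all was Control 2. Pvalb averaged 12.01 ± 0.12 in EtOH and 11.92 ± 0.11 in Control (SD, n = 6 each), a difference of 0.11 (-0.06 to 0.28). It was 0.15 within chip 1, 0.08 within chip 2 and 0.04 without Control 2.

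Calb2 encodes calretinin, a calcium-binding protein of interneurons that contact other interneurons, also present in other hippocampal neurons. The main probe ranged from 10.41 to 11.80 with a median of 11.18 on the EtOH arrays, against 10.99 to 11.44 with a median of 11.17 on the Control arrays. The highest and the lowest of the 12 values both stood on EtOH arrays, EtOH 2 and EtOH 5, with the Control arrays between them. Calb2 averaged 11.12 ± 0.45 in EtOH and 11.19 ± 0.18 in Control (SD, n = 6 each), a difference of -0.17 (-0.54 to 0.21). The second Calb2 probe, which followed the first (r = 0.957), differed by -0.37 (-0.84 to 0.10, unadjusted limma p = 0.114). Within chip 1 the difference of the main probe was 0.18, within chip 2 it was -0.51, and without EtOH 5 it was 0.02. Without the 4 arrays with choroid plexus transcripts it was -0.34, with an unadjusted limma p of 0.0314 and an adjusted p of 1.00. Calb2 spread more between arrays than most probes on the array: its residual SD (the spread left after group and chip) stood at percentile 93.6 of the kept probes, and that of its second probe at percentile 98.2. On EtOH 2, where Calb2 was highest, Ebf3, a marker of Cajal-Retzius cells, was at 8.03, against 5.70 to 6.82 on the other arrays. Reln was also highest on EtOH 2 (11.45). Ebf3 was the 1 gene of 5 Cajal-Retzius markers that was kept, and the part of such cells in the Calb2 and Reln values was not tested.

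Sst encodes somatostatin, the peptide of dendrite-targeting interneurons. Its probe ranged from 12.75 to 12.95 with a median of 12.90 on the EtOH arrays, against 12.68 to 13.24 with a median of 12.93 on the Control arrays. The EtOH values lay inside the Control range, whose highest array was Control 4. Sst averaged 12.87 ± 0.08 in EtOH and 12.92 ± 0.20 in Control (SD, n = 6 each), a difference of 0.02 (-0.14 to 0.19) whose sign turned where the chip was left out (-0.05). It was 0.13 within chip 1 and -0.09 within chip 2.

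Npy encodes neuropeptide Y, a peptide that damps excitatory transmission and is made by several interneuron classes. Its probe ranged from 10.97 to 11.21 with a median of 11.06 on the EtOH arrays, against 11.19 to 11.39 with a median of 11.25 on the Control arrays. All 6 EtOH arrays lay below the Control median and 5 of the 6 lay below every Control array, with EtOH 5 as the exception. Npy averaged 11.08 ± 0.09 in EtOH and 11.26 ± 0.07 in Control (SD, n = 6 each), a difference of -0.16 (-0.30 to -0.03), or 0.894-fold. Its unadjusted limma p was 0.0228 and its adjusted p 1.00, so the difference did not pass the correction over all probes. Within the chips Npy differed by -0.21 and -0.12. It was negative under all 26 alternatives run for Npy, from -0.21 to -0.09, and had an unadjusted p under 0.05 in 17 of them. The weakest, -0.09, came with median scaling in place of quantile normalization (unadjusted limma p of 0.41). The alternatives refit the same arrays and are not separate tests. Leaving out EtOH 6, Control 1 or Control 2 gave -0.15 each time, with unadjusted limma p-values of 0.0603, 0.0566 and 0.0631. Without the 4 arrays with choroid plexus transcripts it was -0.13 with an unadjusted limma p of 0.152.

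Vip encodes vasoactive intestinal peptide, made by interneurons that inhibit other interneurons. Its main probe ranged from 9.33 to 10.17 with a median of 9.68 on the EtOH arrays, against 9.22 to 9.73 with a median of 9.70 on the Control arrays. The range was widest upward on EtOH 1, and 2 EtOH arrays lay above every Control array. Vip averaged 9.71 ± 0.30 in EtOH and 9.62 ± 0.20 in Control (SD, n = 6 each), a difference of 0.11 (-0.21 to 0.42). Without Control 2, the lowest array, it was -0.03, and it was 0.28 within chip 1 and -0.07 within chip 2. Leaving out EtOH 1 gave 0.03, EtOH 6 0.04 and EtOH 5 0.26. The other Vip probe was detected on 0 of 12 arrays.

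Cck encodes cholecystokinin, a peptide of one class of basket cells that also has transcripts in pyramidal cells. Its probe ranged from 12.35 to 12.59 with a median of 12.45 on the EtOH arrays, against 12.37 to 12.71 with a median of 12.49 on the Control arrays. The groups overlapped over nearly their whole range. Cck averaged 12.47 ± 0.10 in EtOH and 12.51 ± 0.13 in Control (SD, n = 6 each), a difference of 0.02 (-0.11 to 0.15), and the sign turned where the chip was left out (-0.04). Cck was among the steadier probes, with a residual SD at percentile 7.32 of the kept probes, and Npy stood at percentile 9.81.

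Reln encodes reelin, a secreted glycoprotein that guides the layering of neurons in development. In the adult Reln is transcribed in a set of interneurons and in other neurons. Its main probe ranged from 10.94 to 11.45 with a median of 11.27 on the EtOH arrays, against 10.91 to 11.17 with a median of 11.02 on the Control arrays. Here 4 EtOH arrays lay above every Control array, and 2, EtOH 4 and EtOH 5, lay among them. Reln averaged 11.22 ± 0.19 in EtOH and 11.03 ± 0.08 in Control (SD, n = 6 each), a difference of 0.18 (-0.02 to 0.38), with an unadjusted limma p of 0.0771 and an adjusted p of 1.00. Within the chips Reln differed by 0.30 and 0.06. It was positive under all 26 alternatives run for Reln, which refit the same arrays, with an unadjusted p under 0.05 in 8 of them. With each array left out in turn it lay between 0.12, without Control 2, and 0.27, without EtOH 5 (unadjusted limma p of 0.0113, adjusted p of 0.999). The other 4 Reln probes were detected on 0 of 12 arrays.

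Lhx6 encodes a LIM homeobox transcription factor of interneurons born in the medial ganglionic eminence, the source of Pvalb and Sst cells. Its kept probe was near background, detected on 11 of 12 arrays, and ranged from 5.65 to 5.93 with a median of 5.83 on the EtOH arrays, against 5.11 to 6.02 with a median of 5.63 on the Control arrays. The EtOH values lay inside the Control range, and all 6 lay above the Control median. Lhx6 averaged 5.80 ± 0.13 in EtOH and 5.61 ± 0.29 in Control (SD, n = 6 each), a difference of 0.10 (-0.13 to 0.34). It was 0.06 within chip 1 and 0.14 within chip 2, and single Control arrays moved it, to 0.04 without Control 2 or Control 5 and to 0.19 without Control 1. Without background correction it was 0.03. Its other probe was detected on 0 of 12 arrays. In all, 8 of the 21 member probes were detected on none of the 12 arrays.

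**Figure D1:**
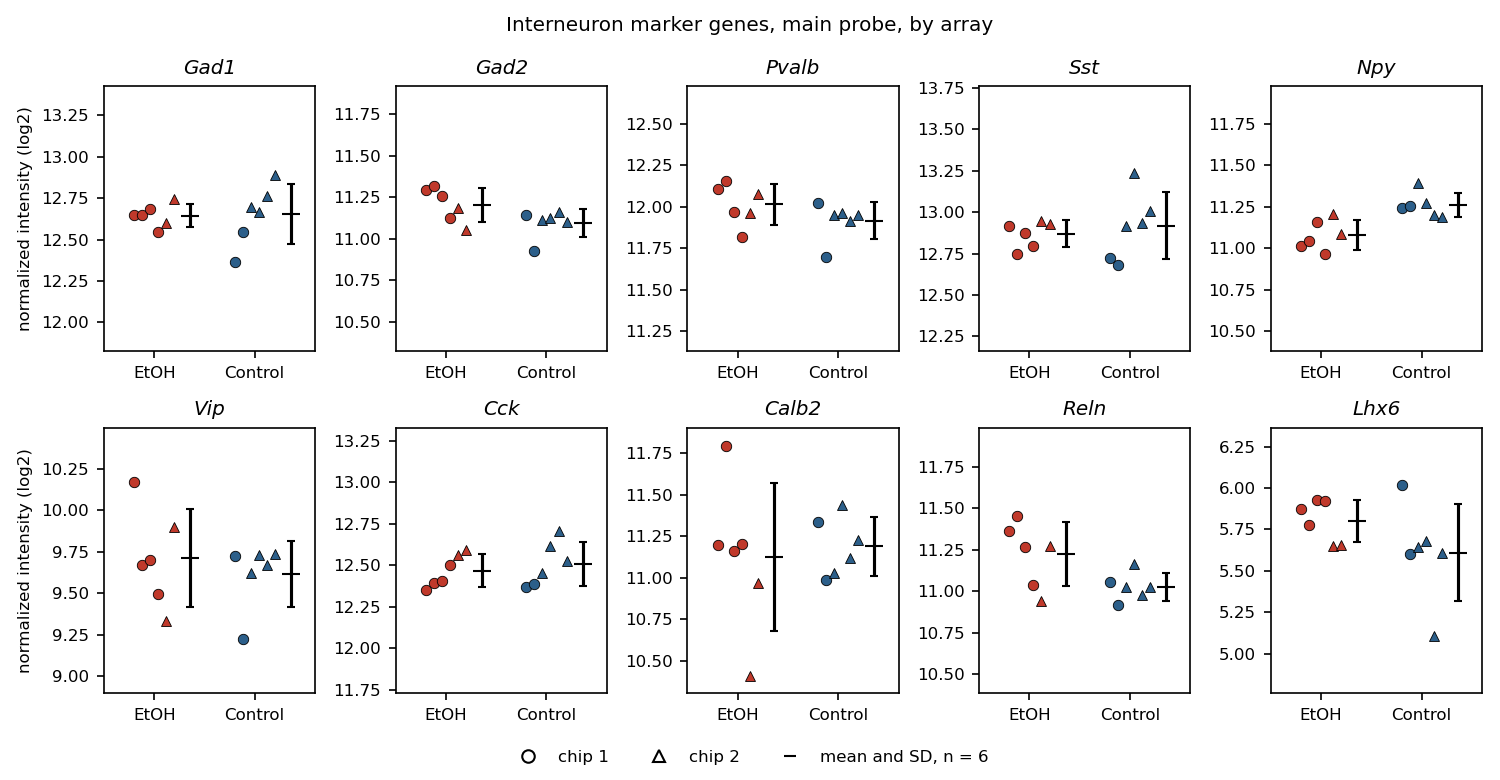
Normalized intensity (log2) of the main probe of each of the 10 genes, EtOH left and Control right, with 1 point per array, circles for chip 1 and triangles for chip 2, and the mean with SD (n = 6) beside each group. Each panel spans the same width on its axis but starts at its own level. The EtOH points of Npy lie low against Control, with 5 of 6 below every Control array, and the points of Calb2 spread most, from 10.41 to 11.80.

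**Figure D2:**
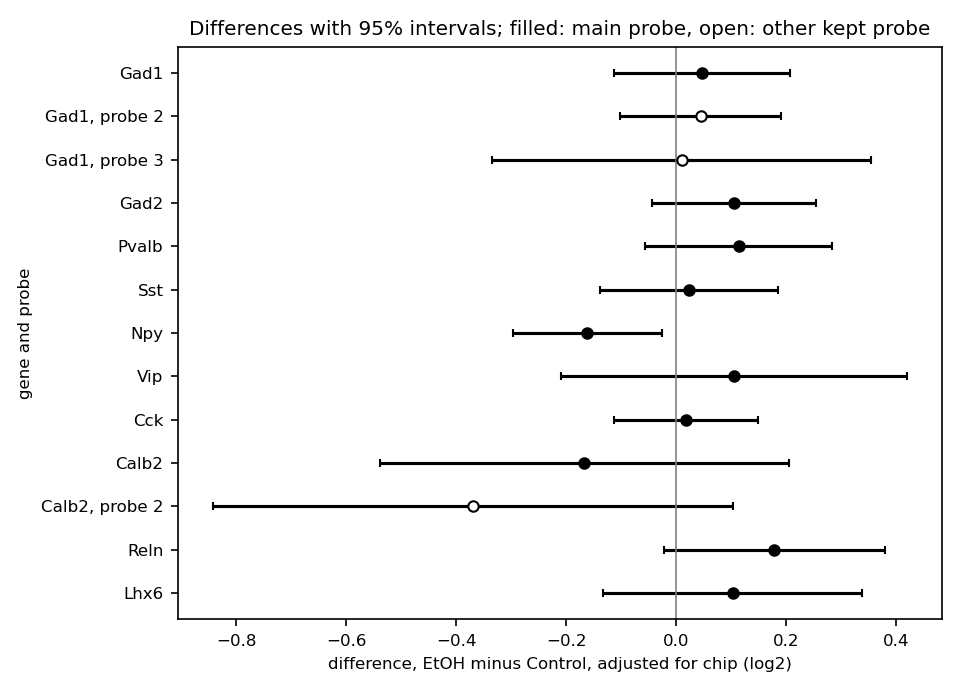
Differences EtOH minus Control (log2, adjusted for chip) with 95% confidence intervals for the 13 kept probes, filled for the main probe of a gene and open for its other kept probes. The interval of Npy, -0.30 to -0.03, is the one that does not span 0, at an adjusted p of 1.00.

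No member differed between the chips past the threshold. In the limma term for the chip, adjusted by Benjamini-Hochberg, 0.773% of all kept probes passed and 0 of the 13 member probes did. Without adjustment, the limma p for the chip was 0.0105 for Cck, 0.0133 for Sst, 0.0323 for Lhx6 and 0.038 for Gad1. It was 0.10 or more for the other main probes. Chip 2 minus chip 1 was 0.18 for Cck, 0.21 for Sst, -0.26 for Lhx6 and 0.17 for Gad1. Each was larger in size than the group difference of that gene. Some arrays stood apart for many members together. Control 2 was the lowest array for 5 of the 10 genes and among the lowest 3 for 9, and EtOH 2 was the highest for 4. Both are among the 4 arrays with choroid plexus transcripts. Over those 4 arrays the median of Sst was 12.77 (range 12.68 to 13.24), against 12.92 (12.72 to 13.01) on the other 8. The 4 arrays thus held both the lowest and the highest Sst value. The median of Calb2 was 11.32 (10.99 to 11.80) on the 4 arrays, against 11.14 (10.41 to 11.33). For the other genes the medians were between 0.13 lower and 0.08 higher on the 4 arrays. How much of the members' values the choroid plexus transcripts carry was not tested.

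The members were also compared with each other, to see which transcripts were high on the same arrays. Over the 45 pairs, Pearson r had a median of 0.16 and ran from -0.737 to 0.789, 29 pairs positive and 16 negative. After Benjamini-Hochberg adjustment over the 45 pairs, 0 passed by Pearson r and 1 by Spearman rho, and 8 had an unadjusted permutation p under 0.05 by Pearson r. Pvalb and Reln moved most alike, with r = 0.789 (permutation p = 0.00154, adjusted 0.0693) and rho = 0.841 (permutation p = 0.00087, adjusted 0.0391). Without the 2 arrays farthest from the median of Pvalb r was 0.667, and r was 0.886 within chip 1 and 0.828 within chip 2. Gad1 and Gad2, the 2 enzymes for the same reaction, had r = 0.05 (permutation p = 0.873, adjusted 0.935) and rho = -0.17 (permutation p = 0.592, adjusted 0.791).

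Pvalb and Vip (r = 0.73, rho = 0.62) and Vip and Reln (r = 0.687, rho = 0.713) were positive within both chips, at 0.801 and 0.492 and at 0.705 and 0.797, with permutation p-values of 0.00919 and 0.0116 by Pearson r, adjusted to 0.105 each, and of 0.0354 and 0.0121 by rho, adjusted to 0.266 and 0.181. Without the 2 farthest arrays r was 0.742 for Pvalb and Vip and 0.497 for Vip and Reln, and for Cck and Lhx6, described next, it was -0.518. Gad2 correlated with Pvalb (r = 0.716, permutation p = 0.00982, adjusted 0.105) and with Reln (r = 0.672, permutation p = 0.0153, adjusted 0.115) over all arrays. Their rho values were 0.567 and 0.469 (permutation p = 0.0578 and 0.129, adjusted 0.289 and 0.379), and within chip 2 both r values were negative, at -0.729 and -0.822. Leaving out the 2 farthest arrays lowered them to 0.23 and 0.404, so that these 2 relations rest in part on those arrays. With each array left out in turn, r lay between 0.488 and 0.867 for Pvalb and between 0.545 and 0.811 for Reln. Cck and Lhx6 were the most negative pair (r = -0.737, permutation p = 0.00471, adjusted 0.105, and rho = -0.483, permutation p = 0.116, adjusted 0.373), and within chip 1 the r was 0.117. Sst and Cck had r = 0.623 (permutation p = 0.0274, adjusted 0.176) and rho = 0.76 (permutation p = 0.00552, adjusted 0.124), and within the chips r was -0.08 and 0.195. Calb2 and Reln had r = 0.587 (permutation p = 0.0402, adjusted 0.226) and rho = 0.524 (permutation p = 0.0835, adjusted 0.342). Their r was 0.133 without the 2 farthest arrays, so that this relation also rests in part on them. Over the values left after group and chip, 2 pairs passed by Pearson r, Pvalb with Reln (0.811) and Calb2 with Reln (0.823). Their adjusted permutation p was 0.0394 each. The permutation did not allow for the terms already fitted, so these p-values are likely too small.

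**Figure D3:**
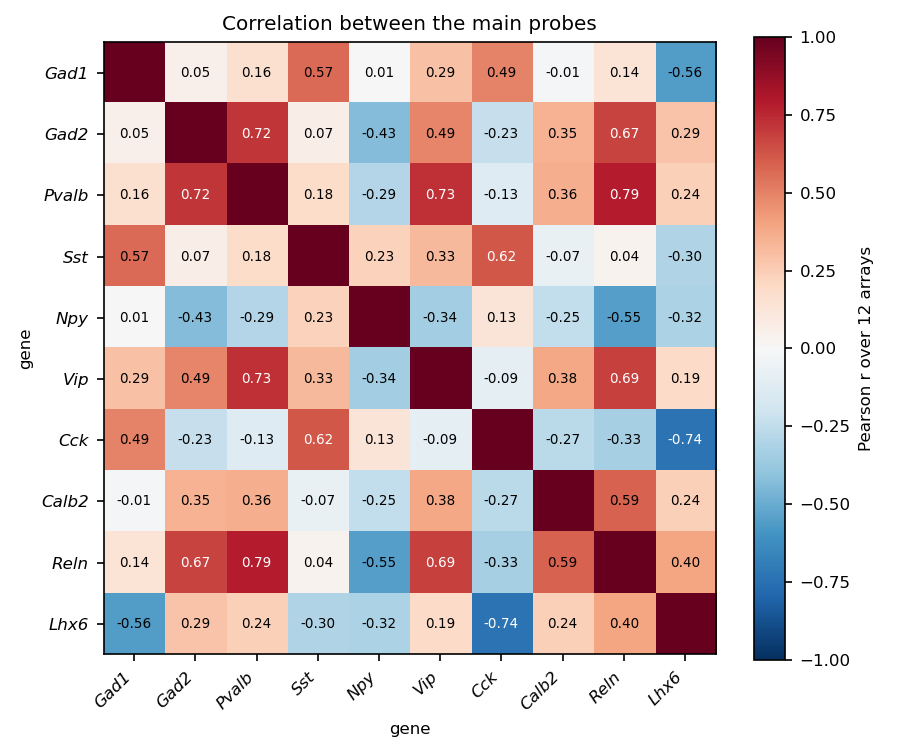
Pearson r between the main probes of the 10 genes over 12 arrays, red for positive and blue for negative. Gad2, Pvalb, Vip, Calb2, Reln and Lhx6 are all positive with each other, from 0.189 for Vip and Lhx6 to 0.789 for Pvalb and Reln. These genes were picked from the drawn values, and no pair passed the adjusted threshold by Pearson r. Cck and Lhx6 are lowest at -0.737. Within chip 2, which is not drawn apart, Gad2 was negative with Pvalb (-0.729), Vip (-0.87), Reln (-0.822), Calb2 (-0.431) and Lhx6 (-0.382). Calb2 was negative there with Pvalb (-0.146) and Lhx6 (-0.113), as was Vip with Lhx6 (-0.00944).

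Pvalb, Vip and Reln also followed list means of genes of tissue beside the hippocampus, though not every gene of those lists moved alike. This comparison was chosen after the values were seen and covered 40 relations, each of the 10 members with the means of 4 lists (neocortex, thalamus, striatum and principal neurons). After Benjamini-Hochberg adjustment, 4 passed by Pearson r and 5 by Spearman rho, and 3 of these were common to both: Pvalb and Reln with the neocortex mean and Reln with the striatum mean. Pvalb followed the mean of the neocortex genes Cux2, Rorb, Fezf2 and Tbr1 with r = 0.853 and rho = 0.879 (permutation p = 0.00048 and 0.00032, adjusted 0.0096 and 0.0108). It was 0.843 without the 2 farthest arrays, 0.934 within chip 1 and 0.68 within chip 2.

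Vip followed the neocortex mean with r = 0.811 (rho = 0.72, permutation p = 0.00142 and 0.0109, adjusted 0.0189 and 0.0725), and with r = 0.491 without the 2 farthest arrays, so that this relation rests in part on them. Reln followed it with r = 0.769 (rho = 0.762, permutation p = 0.00324 and 0.00605, adjusted 0.0324 and 0.0484), and followed the mean of 3 kept striatum genes with r = 0.865 (rho = 0.86, permutation p = 0.00014 and 0.00054, adjusted 0.0056 and 0.0108). For Reln the r without the 2 farthest arrays was 0.659 with the neocortex mean and 0.86 with the striatum mean. The 3 striatum genes, Rgs9, Drd1 and Ppp1r1b, did not all move together. On Control 2, where Reln was lowest (10.91), Rgs9 (8.87) and Drd1 (6.16) were lowest too, but Ppp1r1b was highest (10.96). Ppp1r1b was at 10.34 to 10.96 on the 4 arrays with choroid plexus transcripts and at 9.66 to 10.10 on the rest. The striatum mean therefore holds a gene that was high on those arrays. The relation of Reln to each of these genes was not tested. By rho alone, Pvalb and Reln also followed the mean of 4 thalamus genes, at 0.757 and 0.797 (permutation p = 0.00542 and 0.00291, adjusted 0.0484 and 0.0388). Their Pearson r was 0.672 and 0.706 (permutation p = 0.0186 and 0.00904, adjusted 0.0826 and 0.0603), and 0.404 and 0.345 without the 2 farthest arrays. The 4 thalamus genes, Ntng1, Tcf7l2, Prkcd and Rgs16, did not all move together either. On EtOH 1, next to highest for both Pvalb and Reln, Ntng1 was at its highest (10.67) and Prkcd at its lowest (7.60). Within chip 1 and chip 2 the neocortex r was 0.94 and 0.512 for Vip and 0.818 and 0.504 for Reln. Sst and the neocortex mean had r = -0.04 (permutation p = 0.903, adjusted 0.903). The neocortex mean ran from 8.33 to 9.05 on the EtOH arrays and from 8.21 to 8.71 on the Control arrays, highest on EtOH 1 and lowest on Control 2, and of its genes Cux2 had a difference of 0.50 (0.09 to 0.90, with an unadjusted limma p of 0.0195 and an adjusted p of 1.00). The other 3 genes of the list differed by 0.11 (Rorb), 0.14 (Tbr1) and -0.0016 (Fezf2). With this mean as a covariate in the fit the difference was 0.03 for Gad1, 0.06 for Gad2, 0.03 for Pvalb, -0.28 for Calb2 and 0.0034 for Sst. It was -0.14 for Npy (unadjusted limma p of 0.0579), -0.08 for Vip, 0.04 for Cck, 0.09 for Reln and 0.09 for Lhx6. Some of these neocortex genes also have transcripts in the hippocampal region, and whether the list reads tissue carried over in dissection was not tested.

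**Figure D4:**
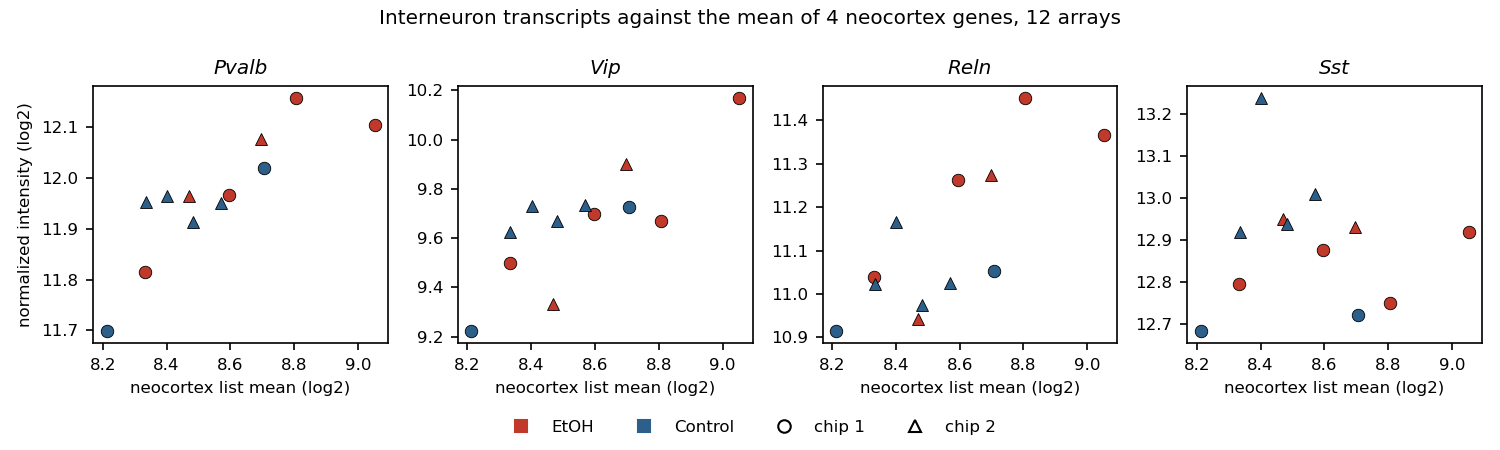
Normalized intensity (log2) of Pvalb, Vip, Reln and Sst on each of 12 arrays against the mean of 4 neocortex genes (log2), EtOH red and Control blue, circles for chip 1 and triangles for chip 2. The Pvalb points climb from lower left to upper right (r = 0.853), and the Sst points do not (r = -0.04).

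By the highest Pearson r over the 12 arrays among 10926 named genes, given as a description without a p-value, the gene most like Pvalb was Nr4a2 (0.949), the one most like Vip was Brinp3 (0.952) and the one most like Reln was Klf6 (0.927). The most like Gad1 was Cndp2 (0.956), Gad2 Vgf (0.885), Sst 2010320M18Rik (0.92) and Npy Fcer1g (0.919). For Cck it was Slc35c2 (0.944), for Calb2 Syndig1l (0.899) and for Lhx6 Rbm10 (0.876). The points share their arrays, and picking the highest of so many values favours high ones.

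The other genes of GABA signalling and of interneuron identity showed no call either. Of 39 listed genes 26 were kept, 16 with a positive and 10 with a negative difference and a median of 0.03, beside 0.0025 over all kept probes. None passed the adjusted limma test, and 2 had an unadjusted p under 0.05, both higher in EtOH, where 1.75% of all kept probes were. Maf, a transcription factor of interneurons from the medial eminence, had a difference of 0.27 (0.05 to 0.49, with an unadjusted limma p of 0.022 and an adjusted p of 1.00). On Control 2 Maf was at 5.90, against 6.48 to 6.67 on the other Control arrays, and 3 EtOH arrays lay above the Control median. Sp8, a transcription factor of interneurons from the caudal eminence, was near background on 8 detected arrays, with a difference of 0.46 (0.04 to 0.88, with an unadjusted limma p of 0.0358 and an adjusted p of 1.00). The next by p were Cort, the somatostatin-like peptide cortistatin, at -0.22, Satb1, a chromatin organizer of maturing interneurons, at 0.23, and Sncg, a marker of some Cck basket cells, at -0.22. On the arrays with choroid plexus transcripts Sncg was at 7.33 to 7.78, against 6.80 to 7.28 on the rest. What part such transcripts have in the Sncg values was not tested.

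Among the brightest genes of that list beside Satb1, the vesicular GABA transporter Slc32a1 differed by 0.06 (-0.15 to 0.27), the GABA transaminase Abat by 0.03 (-0.09 to 0.16), Crhbp, which binds corticotropin-releasing hormone, by 0.09 (-0.04 to 0.21) and Lamp5, a marker of neurogliaform cells, by 0.06 (-0.26 to 0.39). The mean of the list over the arrays ran from 7.95 to 8.18 in EtOH and from 7.88 to 8.14 in Control, lowest on Control 2. Without Control 2 the list's median difference was -0.06.

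Of the receptors and partners of the members' products, 8 of 15 were kept, 7 with a positive difference, and the median was 0.05. The somatostatin receptor Sstr2 differed by 0.12 (-0.09 to 0.34). The neuropeptide Y receptors Npy1r, Npy2r and Npy5r differed by 0.04, 0.03 and 0.03. The cholecystokinin receptor Cckbr differed by 0.40 (-0.27 to 1.06, with an unadjusted limma p of 0.216), and spread from 8.68 to 10.52 over the arrays, highest on EtOH 1 and EtOH 2 and lowest on Control 2. The reelin receptors Lrp8 and Vldlr and the adaptor Dab1 differed by 0.06, -0.01 and 0.05. None passed, and Sstr1, Sstr3, Sstr4, Sstr5, Vipr1 and Cckar were not kept, while Vipr2 had no probe.

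The perineuronal net, the matrix that surrounds many Pvalb cells, was represented by 4 kept genes of 7. The proteoglycans Bcan and Ncan and the link proteins Hapln1 and Hapln4 differed by -0.01, 0.03, 0.08 and -0.01, and none passed. Acan, Vcan and Tnr were not kept.

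**Figure D5:**
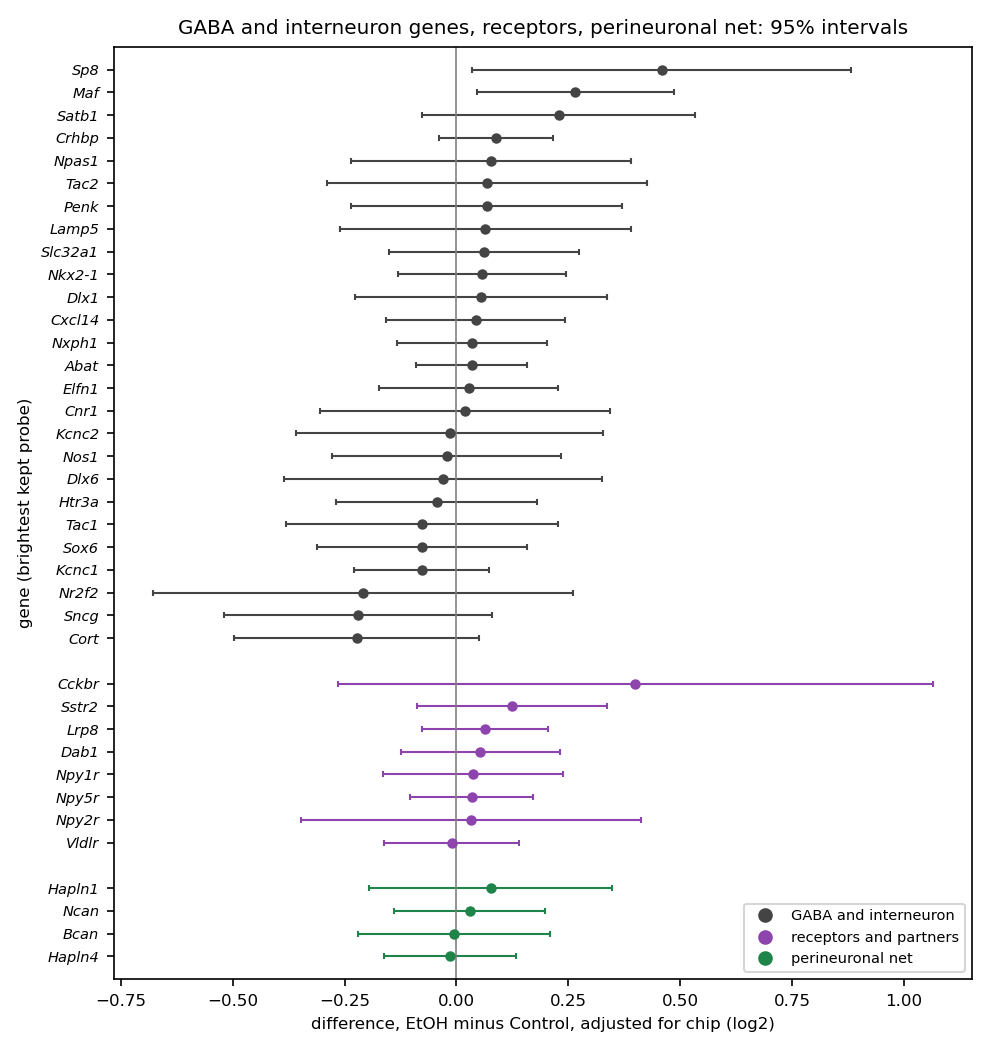
Differences EtOH minus Control (log2, adjusted for chip) with 95% confidence intervals for the brightest kept probe of 26 GABA and interneuron genes, 8 receptors and partners and 4 perineuronal net genes, each group sorted by difference. The intervals of Maf and Sp8 do not span 0, both at an adjusted p of 1.00.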

How the data were processed

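RNA of 12 hippocampus samples was hybridized to 12 arrays. Per the file headers, the authors deposited for each probe and array the signal intensity, not normalized, with a detection p-value against the negative controls. Other upstream steps are not given in the sources used here, beyond GenomeStudio 1.9.0 in the submitters' processing notes. Another table of intensity values that the authors deposited ranked the probes like the matching arrays and served as an alternative.

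Intensities were background-corrected from the detection p-values and quantile-normalized with neqc (offset 16) of limma 3.58.1 in R 4.3.3. Probes entered the test when detected (p under 0.05) on 6 or more of 12 arrays. Groups were compared with lmFit and eBayes, chip as a fixed term, two-sided, with Benjamini-Hochberg adjustment over 20172 probes at 0.05. The fit was tested on simulated data. The median half-width of a 95% interval was 0.20, and the number of arrays limits the precision. Gene names came from the platform annotation. Correlations used 100000 permutations, two-sided.

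All members are reported with all their probes. Receptors are all given, other lists by up to 5 genes with the smallest p and up to 5 brightest, and for each member the 1 gene most like it. The members and lists were chosen with earlier results of these data known. Alternatives changed background, normalization, filter, chip term, weights, variance model and replicate block, and left out each array.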

Additional observations from a re-analysis of the deposited data

Results flagged for a closer look

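Within the Control group, 1 array lay far below the other 5 for 3 members. Control 2 had 10.93 for Gad2, with the nearest other Control array at 11.10, 11.70 for Pvalb, with the nearest at 11.91, and 9.22 for Vip, with the nearest at 9.62. The mean of the 26 GABA and interneuron genes was 7.88 on Control 2, with the nearest at 8.06. These were 4 of 34 sets of 6 arrays examined with Dixon's test, which picks out about 1 in 20 by chance. Control 2 also had the lowest neocortex mean, 8.21, and is among the 4 arrays where choroid plexus genes were high. Whether these values have a shared source was not tested.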

How the results depend on the processing

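No probe passed the adjusted threshold under any of the settings run, and the lowest adjusted p of any probe was 0.0709, without Control 2. Unadjusted p under 0.05 was met by 702 of 20172 probes in the chosen fit and by 1913 of 45281 with no filter. With detection under 0.01 on all 12 arrays it was met by 458 of 15259. Median scaling gave 71.6% of the probes at that p as higher in EtOH, against 50.4% in the chosen fit, and moved the median of all probes to 0.06. Over the 10 members, 244 of 261 alternative values kept their sign and 17 reversed, while Npy, Pvalb, Reln and Lhx6 kept it throughout. Chip left out of the fit gave -0.0096 for Gad1, -0.048 for Sst, -0.0425 for Cck and 5 members higher, and chip as a random block gave -0.0294 for Sst and -0.0269 for Cck. Chip 1 alone gave 0.18 for Calb2 and a member median of 0.16; chip 2 alone gave -0.0819 for Gad1, -0.0056 for Gad2, -0.0854 for Sst, -0.0739 for Vip, 4 members higher and a median of -0.0398. With each array left out in turn, the difference ran from -0.319 to 0.025 for Calb2, from -0.0188 to 0.107 for Gad1, from -0.0112 to 0.0628 for Sst, from -0.0342 to 0.257 for Vip and from -0.00049 to 0.0394 for Cck. The neocortex mean as a covariate, added after seeing the data, gave -0.0789 for Vip. The median of the perineuronal net list, 0.01 in the chosen fit, was 0.0824 with median scaling and 0.076 with no filter. Correlation counts were 0 of 45 pairs, and 2 over residuals after group and chip; within chip 1 Sst with Cck was -0.0841 and Cck with Lhx6 0.117, and within chip 2 Gad2 with Pvalb was -0.729 and with Reln -0.822. Lhx6 was not kept under the strict filter. The replicate number was also tried as a block: same-numbered arrays correlated from 0.08 to 0.27, not all above 0.1, so the numbers were not taken as pairs, and the replicate block gave 917 probes at an unadjusted p under 0.05, 0.27 for Reln, -0.13 for Npy and -0.0231 for Cck. The cause of these changes was not tested. The number of arrays limits all of these values.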
